A study of Mus musculus with 2 samples.

Results

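The genes described here encode the subunits of the mitochondrial respiratory chain and ATP synthase. They were chosen by name: probes named Nduf-, Sdha to Sdhd, Uqcr-, Cox4 to Cox8, Atp5-, Cyc1 or Cycs. The rule found 85 genes and 120 probes among 27740 names and 41167 probes of a mouse expression array, of which 84 genes and 116 probes stood well above background in 1 channel or both. Cox8c was not above background in either channel. Of the 84 genes, 79 were subunits or cytochrome c and 5 shared only the name: the assembly factors Ndufaf1 and Ndufa12l (Ndufaf2), the supercomplex factor Cox7a2l, Atp5s (Dmac2l) and Cox4nb (Emc8).

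The study compared the fetal lungs of 2 male littermate embryos at E16.5 (embryonic day) on an Sv129/CD-1 hybrid background, 1 heterozygous and 1 homozygous for the Foxj1lacZ allele. Foxj1 is the forkhead transcription factor that drives the genes of motile cilia, and both embryos carried at least 1 copy of the lacZ allele, so no wild-type lung was part of this comparison. Tissue outside the lobes had been trimmed away before freezing. The samples are titled lung lobes and their source is given as lung epithelium, but no separation of epithelium is described, and the lung epithelial genes Nkx2-1, Foxa2, Cdh1, Epcam and Sftpc were well above background in both. So were the other 2 listed epithelial genes, the surfactant gene Sftpb and the club cell gene Scgb1a1, but at log2 ratios of −1.72 and −2.47 they were lower in the homozygous channel. Heterozygous cRNA was labelled with Cy3 (green) and homozygous cRNA with Cy5 (red) on 1 two-colour array without a dye swap, so genotype, embryo, lung and dye cannot be told apart. With 1 sample per group there was no test between genotypes, and no p-value is given.

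The respiratory chain passes electrons from NADH and succinate through complexes I to IV to oxygen and pumps protons across the inner mitochondrial membrane, and complex V, the ATP synthase, uses the proton gradient to make ATP. Complexes I, III, IV and V combine a few subunits encoded in the mitochondrial genome with many encoded in the nucleus, while complex II is encoded wholly in the nucleus. Several small complex IV subunits exist as a ubiquitous form and a form found mainly in heart and skeletal muscle, so the set can carry a tissue signature as well as a measure of the general mitochondrial programme.

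Levels are given as log2 of the background-corrected, normalised intensity of a gene's probes, and a difference as the log2 ratio of homozygous over heterozygous, with negative values where the homozygous lung was lower. For a gene with several probes, each of these is its own median over the probes. The error given with a ratio is that of the scanner software for the spot and does not cover differences between embryos. The SD between repeated spots of a probe was 0.058 on this scale, and that between different probes of a gene was 0.26. Spots well above background made up 69.0% in the heterozygous and 75.6% in the homozygous channel, and 0 spots were saturated. The targeted gene Foxj1 read 9.53 in the heterozygous and 7.61 in the homozygous channel, a log2 ratio of −1.92 ± 0.30. Whether its probe lies in the part removed by the allele was not determined. The 7 listed genes of multiciliated cells, Foxj1 among them, had a median of −2.23. This list was chosen with earlier results of these data known.

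Few subunit genes differed by a large factor, and those that did were muscle isoforms. Over the 84 genes the median log2 ratio was −0.03, with quartiles of −0.14 and 0.14 and a range from −1.66 (Cox6a2) to 0.55 (Atp5g3). The median over all 21262 genes above background was −0.0029, with quartiles of −0.19 and 0.15. A size mark of 1.5-fold was passed downward, that is with less signal from the homozygous lung, by 2 member genes, Cox6a2 and Cox8b, or 2.38%, against 5.88% of all genes. It was passed upward by 0 member genes, against 2.10% of all genes. A 2-fold mark was passed downward by Cox6a2 alone among the members, against 1.88% of all genes, and upward by 0 members, against 0.578%. The split depended on the scaling: the deposited log ratio of the scanner software gave 3 lower and 2 higher genes, and median centring gave 2 lower and 63 higher. The shares of all genes above hold for the loess values and are not given for these scalings. With median centring most bright probes of other genes were also at least 1.5-fold higher. These were 438 of 505 at a mean log2 intensity of 15 to 16 and 209 of 215 at 16 to 17, against 4832 of 10041 at 10 to 14. Below 0 were 46 members, or 54.8%, against 50.5% of all genes.

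Because most subunit genes were bright, and bright probes as a class were shifted on this array, each probe was also set against the 200 probes nearest to it in mean log2 intensity that belonged to no member. The difference from their median is called the offset. The median of non-member probes stayed close to 0 over most of the intensity range and rose above a mean log2 intensity of 15, to 0.92 among the brightest. Relative to these neighbours, 63 of 84 member genes had a negative offset, with a median of −0.10. Among the 116 probes, 34 (29.3%) lay below the first quartile of their neighbours and 17 (14.7%) above the third.

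**Figure D1:**
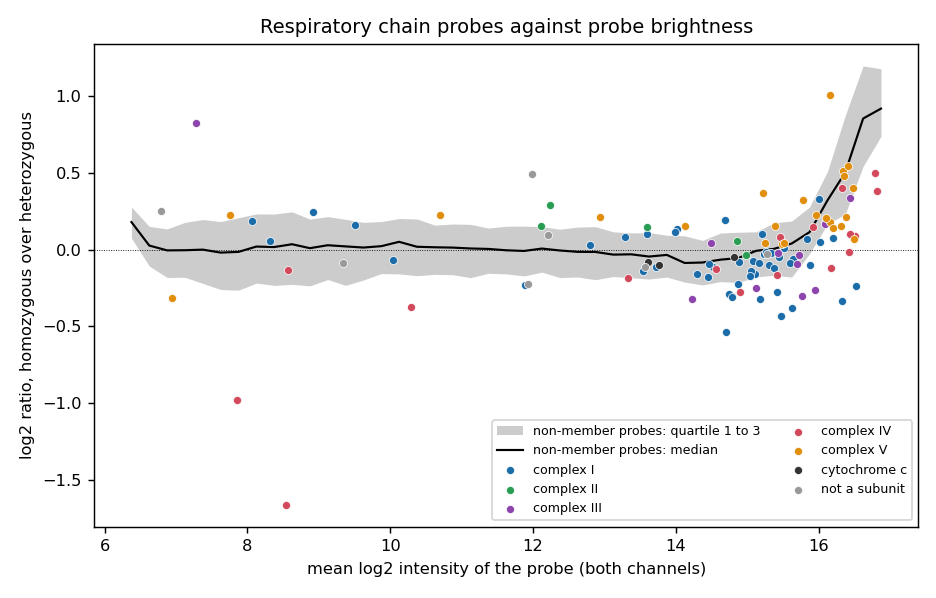
Log2 ratio of homozygous over heterozygous for each of the 116 member probes (points, coloured by complex) against the probe's mean log2 intensity over both channels; the black line and grey band are the median and the quartiles of non-member probes in windows of intensity. Member probes at 16 to 17 had a median of 0.18. The line and band there join ribosomal protein probes, with a median of 0.93, and other non-member probes, with a median of 0.46. The Cox6a2 and Cox8b probes lie far below the band at −1.66 and −0.98.

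Complex I, the NADH dehydrogenase that feeds most electrons into the chain, was slightly lower in the homozygous channel. Its 35 measured genes had a median log2 ratio of −0.10, and 26 of them were below 0. By 1.5-fold differed 0 of them, where 5.88% of all genes were lower by that factor and 2.10% higher. The median offset was also −0.10, with 29 of 35 genes below their neighbours. The shift was smaller than the typical scanner error of a single gene, 0.20, which does not measure the spread of a median over 35 genes. Its direction depended on the scaling: the median was −0.17 with the scanner software and 0.71 with median centring, while the median offset was −0.10 under both.

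The 7 core subunits of the matrix arm, which carry the flavin and iron-sulphur clusters, had a median of −0.11, and 6 of them were below 0. Ndufs7, which holds the cluster next to ubiquinone, read 15.34 in the heterozygous and 15.02 in the homozygous channel, a log2 ratio of −0.32 ± 0.21. Ndufs3 read 14.89 and 14.60, a log2 ratio of −0.29 ± 0.21. Ndufv1, the flavin-binding subunit that oxidises NADH, read 14.58 and 14.47, a log2 ratio of −0.11 ± 0.20.

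The accessory subunits surround this core and are needed for its assembly and stability. The 8 of the matrix arm had a median of −0.05, with 5 below 0, and the 19 of the membrane arm a median of −0.10, with 14 below 0. The lowest complex I gene was the membrane-arm subunit Ndufb10, at 15.69 in the heterozygous and 15.26 in the homozygous channel, a log2 ratio of −0.43 ± 0.21. Ndufs4, an accessory subunit of the matrix arm, read 14.94 and 14.63, a log2 ratio of −0.31 ± 0.21. The highest was Ndufc2, at 15.84 and 16.17, a log2 ratio of 0.33 ± 0.20. Ndufa11 and Ndufa10, both of the membrane arm, followed: Ndufa11 read 14.27 and 14.42, a log2 ratio of 0.16, and Ndufa10 read 13.95 and 14.09, a log2 ratio of 0.13. By the median of a gene's probes, only Ndufb10, Ndufs7 and Ndufs4 were below −0.30 and only Ndufc2 above 0.20. Most complex I genes lay within 1 scanner error of 0. The brighter probes of Ndufa3, Ndufb2 and Ndufb8 were also below −0.30, at −0.54, −0.38 and −0.33. Each was joined with a dim probe, at 0.25, 0.05 and 0.16. By its brighter probe Ndufa3 was thus lower than Ndufb10.

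Ndufa13, also known as Grim19, showed how much the reference mattered. It read 16.64 in the heterozygous and 16.40 in the homozygous channel, a log2 ratio of −0.24 ± 0.21. At that brightness its neighbours had a high median, so its offset was −0.93, the lowest of complex I. With the scanner software its log2 ratio was −0.61, which passed the 1.5-fold mark.

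Complex II, succinate dehydrogenase, oxidises succinate in the TCA cycle and passes its electrons to ubiquinone. Its median log2 ratio was 0.10 and its median offset 0.16, the only positive median offset among the complexes. The flavin-binding subunit Sdha read 12.07 in the heterozygous and 12.29 in the homozygous channel, a log2 ratio of 0.22 ± 0.21. A further, dim Sdha probe under a clone name, outside the naming rule, had a log2 ratio of −0.10. The membrane anchor Sdhc read 13.52 and 13.67, a log2 ratio of 0.15 ± 0.20. The iron-sulphur subunit Sdhb and the second anchor Sdhd were nearer 0: Sdhb read 14.83 and 14.89, a log2 ratio of 0.06, and Sdhd read 15.00 and 14.96, a log2 ratio of −0.04. All 4 gene values were close to or within the scanner error.

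Complex III, the cytochrome bc1 complex, hands electrons from ubiquinol to cytochrome c. Its 8 genes had a median log2 ratio of −0.06 and a median offset of −0.17, with 6 of 8 offsets below 0. The Rieske iron-sulphur protein Uqcrfs1 read 15.24 in the heterozygous and 14.99 in the homozygous channel, a log2 ratio of −0.25 ± 0.21. The other catalytic subunit, cytochrome c1 (Cyc1), read 15.44 and 15.42, a log2 ratio of −0.02 ± 0.20. The core proteins Uqcrc1 and Uqcrc2, which form the large matrix domain, had log2 ratios of 0.0045 and −0.09, with Uqcrc1 at 15.11 in both channels.

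The small subunits of complex III spread to both sides. Uqcrb read 14.39 and 14.07, a log2 ratio of −0.32 ± 0.21, and Uqcr (Uqcr11) read 15.92 and 15.62, a log2 ratio of −0.30 ± 0.21. Uqcrh, the hinge protein that helps cytochrome c dock, read 16.14 and 16.39, a log2 ratio of 0.25 ± 0.20, but its offset was −0.19. The value of Uqcrq, a log2 ratio of 0.28 from 11.47 and 11.75, joined a bright probe at −0.26 and a dim one at 0.83, so its direction was not settled. Cytochrome c itself (Cycs), the mobile carrier between complexes III and IV, read 13.81 and 13.71, a log2 ratio of −0.08 ± 0.20, and its 3 probes lay between −0.10 and −0.05.

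**Figure D2:**
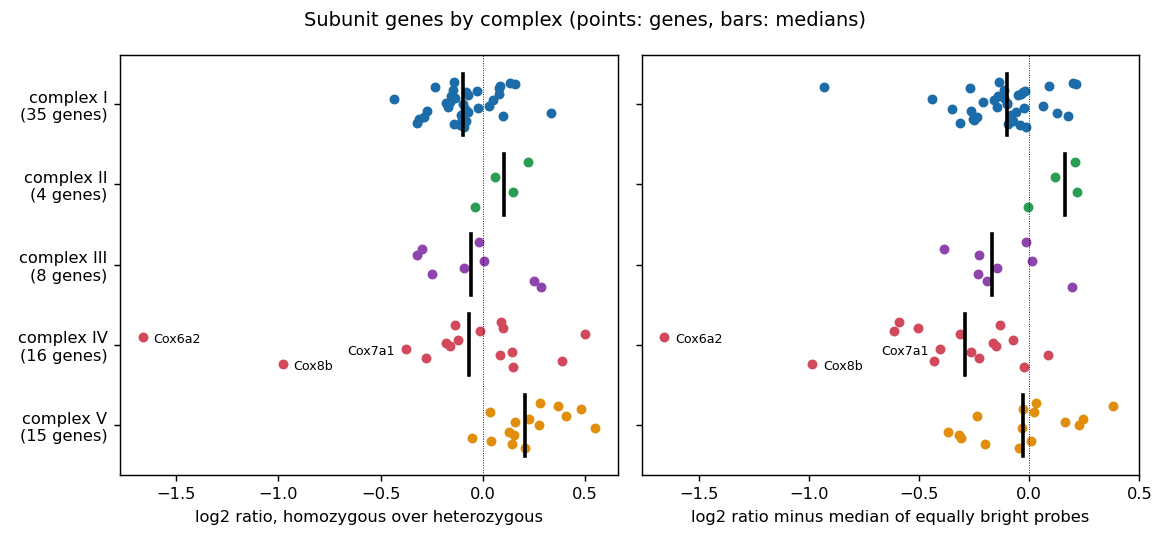
Log2 ratio (left) and offset from equally bright probes (right) for each subunit gene, by complex; points are genes and black bars medians. Complex V had a median ratio of 0.21 but a median offset of −0.03, complex IV had the lowest median offset at −0.29, and Cox6a2 and Cox8b stand apart in both panels.

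Complex IV, cytochrome c oxidase, reduces oxygen and held the genes that differed most. Its 16 genes had a median log2 ratio of −0.07 and a median offset of −0.29, and 15 of 16 offsets were below 0. Of its 17 probes, 10 (58.8%) lay below the first quartile of equally bright probes and 0 above the third. This position rested partly on ribosomal protein genes among the neighbours: without them the median offset was −0.18, with 14 of 16 below 0.

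The 11 ubiquitous subunits, which make up the enzyme in most tissues, had a median log2 ratio of 0.09 and a median offset of −0.26, with 10 of 11 offsets below 0. Cox4i1, the largest nuclear-encoded subunit, read 16.47 in the heterozygous and 16.56 in the homozygous channel, a log2 ratio of 0.09 ± 0.21 and an offset of −0.59. Cox5a read 16.39 and 16.49, a log2 ratio of 0.10 ± 0.21 and an offset of −0.51. Cox5b read 16.43 and 16.41, a log2 ratio of −0.02 ± 0.21 and an offset of −0.62. These 3 structural subunits were near 0 under this scaling, while other probes of their brightness were higher in the homozygous channel. With the scanner software they stood at −0.31, −0.23 and −0.38, and with median centring at 1.07, 1.07 and 0.96. Cox7c, a small membrane-spanning subunit, had the lowest log2 ratio of the ubiquitous forms, −0.28 ± 0.21, from 15.04 and 14.76. Ndufa4, once counted to complex I and now to complex IV, read 15.84 and 15.99, a log2 ratio of 0.15 ± 0.20.

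The forms of complex IV subunits typical of heart and skeletal muscle were lower against their ubiquitous counterparts on this array, most of all Cox6a2. Because each such reading came from a single 60-base oligonucleotide, the first 30 bases of each are shown to identify what was measured, as printed in the deposited array annotation. The Cox6a2 probe lies at chr7:127996794-127996853, the Cox8b probe at chr7:140750273-140750332 and the Cox7a1 probe at chr7:29894078-29894689 of mm8, where its bases span 612 bases of the genome. The probes of the counterparts lie at chr5:115606716-115606775 (Cox6a1) and chr19:7282281-7282340 (Cox8a). The exon or UTR in which each probe falls was not worked out, as no annotation of that build was used.
Cox6a2: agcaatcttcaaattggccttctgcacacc
Cox6a1: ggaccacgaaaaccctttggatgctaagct
Cox8b: ctataaaaagagctccgcagcatgaagttg
Cox8a: tcatgttattcaattccagtcacctcttct
Cox7a1: acaacgtcctgtacagactgaccatgacgc
The longest run of bases shared between an isoform's whole probe and that of its counterpart was 4 for Cox6a2 and Cox6a1, 5 for Cox8b and Cox8a and 6 for Cox7a1 and Cox7a2, so the probes of a pair have little sequence in common.

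Cox6a2, the heart and muscle form of subunit VIa, read 9.37 in the heterozygous and 7.71 in the homozygous channel, a log2 ratio of −1.66 ± 0.28. It was 3.17-fold lower in the homozygous channel, and none of the 200 equally bright probes had a lower ratio. Its ubiquitous counterpart Cox6a1 read 16.54 and 17.04, a log2 ratio of 0.50 ± 0.20. Isoform minus counterpart, the log2 ratios differed by −2.16, or 4.48-fold, with a combined scanner error of 0.34. The difference of their offsets was −1.34.

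Cox8b, the heart and muscle form of subunit VIII, read 8.34 and 7.36, a log2 ratio of −0.98 ± 0.25, or 1.97-fold lower. Of the equally bright probes, 3.5% had a lower ratio. Cox8a, the ubiquitous form, read 16.63 and 17.02, a log2 ratio of 0.38 ± 0.20. The log2 ratio of Cox8b minus that of Cox8a was −1.36, or 2.57-fold, with a combined error of 0.32, and the difference of offsets was −0.55. The sign of Cox8a was not firm, since its log2 ratio was −0.04 with the scanner software.

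Cox7a1, the heart and muscle form of subunit VIIa, had the smallest difference, reading 10.47 and 10.10, a log2 ratio of −0.38 ± 0.21. Of the equally bright probes, 11% had a lower ratio. Cox7a2, its ubiquitous counterpart, read 16.18 and 16.32, a log2 ratio of 0.14 ± 0.21. The difference in log2 ratio was −0.52 with a combined error of 0.29, and that in offset −0.14. Here too the sign followed the scaling, as median centring gave Cox7a1 a log2 ratio of 0.13 and the scanner software gave Cox7a2 −0.18.

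Over the 3 pairs the median difference between isoform and counterpart was −1.36 in log2 ratio and −0.55 in offset. The offset differences depended on the neighbours. Without ribosomal protein genes among them they were −1.66 for Cox6a2, −0.89 for Cox8b and −0.22 for Cox7a1. Cox6a2 and Cox8b passed the 1.5-fold mark downward under every one of the processing alternatives tried, with log2 ratios from −1.99 to −1.41 and from −1.31 to −0.91.

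Heart and striated muscle genes as a group were lower in the same homozygous lung. This list and the others were chosen with earlier results of these data known. Of the 23 listed genes 22 were above background, with a median log2 ratio of −0.49. Below 0 were 20 of them. The 1.5-fold mark was passed downward by 11, against 5.88% of all genes, and upward by 1 (Mb), against 2.10%. Their summed intensity was 56224 in the heterozygous and 21765 in the homozygous channel. Such sums rest mostly on the brightest genes, here Myl7 in the heterozygous and Actc1 in the homozygous channel. The atrial myosin light chain Myl7 read 14.58 and 11.06, a log2 ratio of −3.52 ± 0.39, Csrp3, a muscle LIM protein, read 10.13 and 7.34, a log2 ratio of −2.79 ± 0.37, and Tnni3, cardiac troponin I, read 9.96 and 7.21, a log2 ratio of −2.74 ± 0.39. Not all well measured muscle genes were this low: the cardiac actin Actc1 read 13.48 and 13.42, a log2 ratio of −0.07, the slow myosin heavy chain Myh7 read 12.16 and 11.84, a log2 ratio of −0.32, and Myl3 had a log2 ratio of −0.13. The ventricular light chain Myl2 and the muscle mitochondrial creatine kinase Ckmt2 were near the lower end of the intensity range in both channels, with log2 ratios of −0.13 and −0.05, and Pln was not above background. The part of striated muscle tissue in the Cox6a2, Cox8b and Cox7a1 values was not tested. In RNA from whole lobes, fewer cells of a type and less RNA per cell cannot be told apart. Erythroid genes were mostly lower too, with a median log2 ratio of −0.87 over 7 genes and 6 of them below 0. Past the 1.5-fold mark downward were 4, against 5.88% of all genes, the lowest being Alas2 of haem synthesis at −1.73. The globins, the brightest of the 7, had 0.06 for Hba-a1 and −0.31 for Hbb-b1, whose probes ranged from −1.16 to 0.40. With the scanner software 6 of the 7 passed the mark downward, and with median centring 1 passed it downward and 2 upward. Shares of all genes are not given for these scalings. Of the brown fat genes, Ucp1 was not above background and Cidea had a log2 ratio of −0.69.

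**Figure D3:**
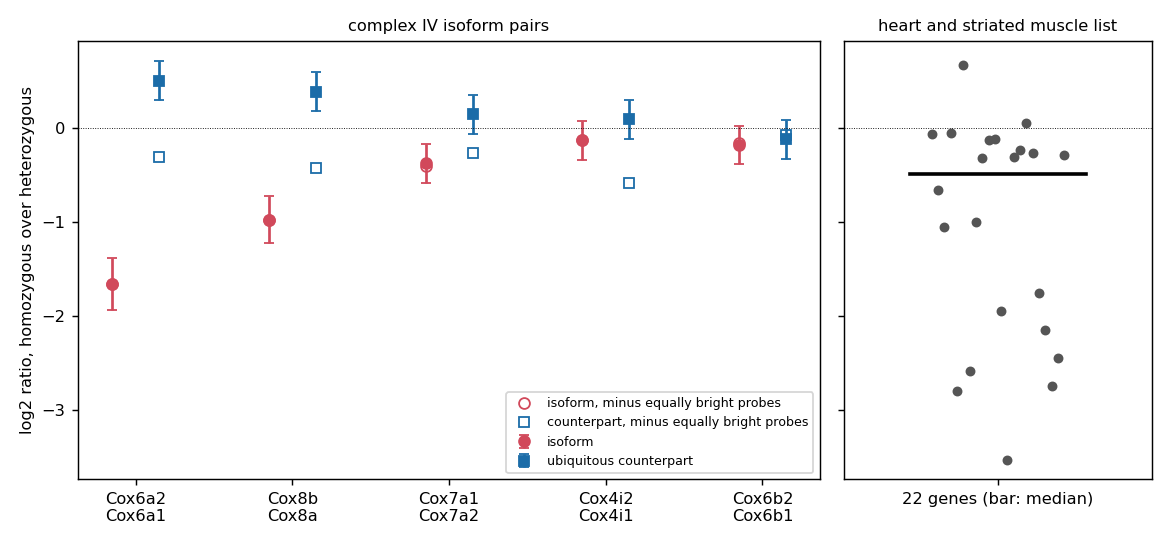
Left, log2 ratio of homozygous over heterozygous for 5 complex IV isoforms (red circles) and their ubiquitous counterparts (blue squares), with the scanner error of the ratio as bars and open symbols for the offset from equally bright probes; right, the 22 measured heart and striated muscle genes with their median of −0.49. Cox6a2 and Cox8b lie at −1.66 and −0.98, beside counterparts at 0.50 and 0.38.

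The other tissue-restricted forms did not share this separation. Cox4i2, a form of subunit IV known from lung and induced by low oxygen, read 8.64 in the heterozygous and 8.50 in the homozygous channel, a log2 ratio of −0.13 ± 0.21. Minus Cox4i1, the difference was −0.22 in log2 ratio and 0.46 in offset. The 9 listed genes of the hypoxia response had a median of −0.05, with 1 of them, Ndrg1, at least 1.5-fold lower, against 5.88% of all genes. Cox6b2, a form known from testis, read 13.42 and 13.24, a log2 ratio of −0.18 ± 0.20, close to its counterpart Cox6b1, which read 14.63 and 14.51, a log2 ratio of −0.12.

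Complex V was the one complex whose genes were nearly all higher in the homozygous channel, but not against equally bright probes. Its 15 genes had a median log2 ratio of 0.21 and 14 were above 0, but the median offset was −0.03, with 8 genes below and 7 above their neighbours. The median ratio was 0.01 with the scanner software and 1.09 with median centring, so its size was set by the scaling. The direction was too, as 8 of the 15 genes were above 0 with the scanner software and 15 of 15 with median centring.

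The 5 genes of the F1 head and central stalk, which hold the catalytic sites and the rotor shaft, had a median log2 ratio of 0.37. The catalytic subunit Atp5b read 15.04 and 15.40, a log2 ratio of 0.37 ± 0.21, with 3 probes at 0.21, 0.37 and 1.01. The noncatalytic partner Atp5a1 read 15.66 and 15.93, a log2 ratio of 0.28 ± 0.20, with probes at 0.04 and 0.52. The shaft subunit Atp5c1 read 16.12 and 16.60, a log2 ratio of 0.48 ± 0.20, which matched its neighbours with an offset of −0.03. The small shaft subunit Atp5e read 16.29 and 16.69, a log2 ratio of 0.40 ± 0.20, with an offset of −0.24. Atp5d, the remaining shaft subunit, was level at 15.47 and 15.51, a log2 ratio of 0.04. Of these, Atp5b kept the largest offset, 0.38.

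The 3 genes of the c ring, Atp5g1, Atp5g2 and Atp5g3, encode one mature protein with different import sequences. Atp5g3 read 16.13 and 16.68, a log2 ratio of 0.55 ± 0.20, the highest of all members, but with an offset of −0.03. Atp5g2 and Atp5g1 had lower log2 ratios, 0.28 and 0.16, and positive offsets, 0.23 and 0.16. Atp5g3 was thus the highest of the 3 by ratio and the lowest by offset. The 7 genes of the peripheral stalk and remaining membrane subunits had a median log2 ratio of 0.14 and a median offset of −0.20, from Atp5j2 at −0.05 to Atp5f1 (Atp5pb) at 0.23. Atp5j2 read 11.69 and 11.64, and Atp5k read 15.50 and 15.54, a log2 ratio of 0.04.

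The brightest probes gave the clearest contrast between the respiratory chain and other highly expressed genes. At a mean log2 intensity of 16 to 17 lay 26 member probes, with a median log2 ratio of 0.18. In the same range 94 probes of cytosolic ribosomal protein genes had a median of 0.93, and 215 probes of other genes a median of 0.46. At least 1.5-fold higher were 1 of the 26 member probes, 74 of the 94 ribosomal probes and 80 of the 215 others. These counts were 1, 44 and 30 with the scanner software and 26, 94 and 209 with median centring. The order of the medians was kept with the scanner software, at −0.11 for members, 0.10 for others and 0.55 for ribosomal probes, and with median centring, at 1.12, 1.42 and 1.91.

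The low position at this brightness was not equal across complexes. The 7 bright probes of complex IV had a median log2 ratio of 0.10 and a median offset of −0.44, all of them below their neighbours. The 11 of complex V had a median ratio of 0.21 and a median offset of −0.14, with 9 below. The 6 of complex I had a median ratio of 0.06 and a median offset of −0.22, with 5 below. Without ribosomal protein genes among the neighbours, 19 of the 26 bright member probes were still below 0, against 23 with them. In the range of 15 to 16 the contrast was small, with a median of −0.05 for 38 member probes and 0.03 for 505 others.

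**Figure D4:**
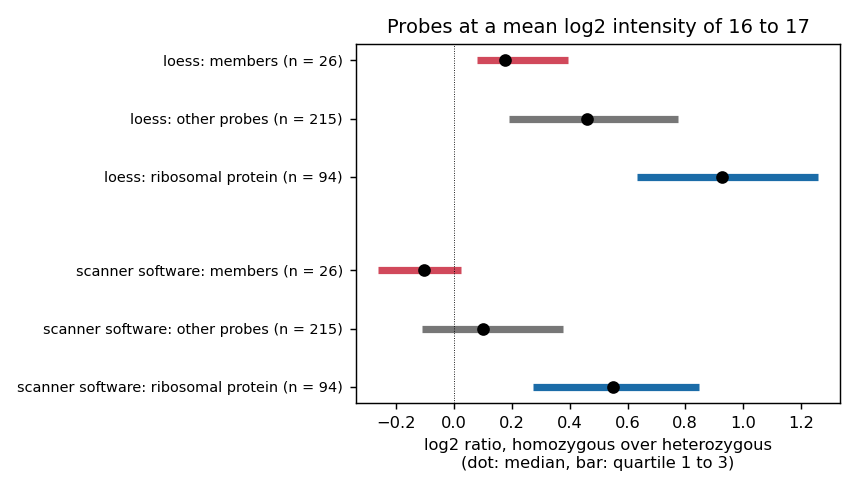
Median (dots) and quartiles (bars) of the log2 ratio for probes at a mean log2 intensity of 16 to 17, for loess-normalised values (upper 3 rows) and the scanner software's log ratio (lower 3 rows). Member probes had the lowest median in both, 0.18 and −0.11, and ribosomal protein probes the highest, 0.93 and 0.55.

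Repeated probes of a gene set a limit on single values. Of the 25 member genes with several probes above background, the median range between probes was 0.17, and 10 had probes on both sides of 0. In 4 of these the probes lay more than 0.5 apart: Uqcrq (−0.26 and 0.83), Ndufa3 (−0.54 and 0.25), Atp5j2 (−0.32 and 0.21) and Cox7a2 (−0.12 and 0.40). Pairs of probes that shared at least 15 bases differed less, by a median of 0.04 over 9 pairs, against 0.15 over 30 other pairs.

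The Cox7a2 probes were the exception among overlapping pairs, with the largest difference, 0.52. They lie at chr9:79541104-79541163 and chr9:79541092-79541151 of mm8 and share 48 of 60 bases. Their first 30 bases are shown with the bases held by both probes in capitals.
Cox7a2 probe at 0.40: aactgagctcttCTTTGGGGATCAATATTT
Cox7a2 probe at −0.12: CTTTGGGGATCAATATTTATTGATGTGTAT
Almost the same stretch of transcript thus gave log2 ratios of opposite sign, a gap larger than the median difference between probes of other members.

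The genes around the respiratory chain mostly differed by small factors, with a few exceptions upward. Only 3 of the 13 protein genes of the mitochondrial genome had a probe by name, and for those named COX2 and ND4L the origin is uncertain, since the array annotation gives a nuclear position or a clone description. Their values differed in sign: cytochrome b (mt-Cytb) read 17.34 and 16.88, a log2 ratio of −0.46 ± 0.22, the probe named COX2 had a log2 ratio of 0.70, past the 1.5-fold mark, and the probe named ND4L had −0.04. The COX2 and ND4L probes had mean log2 intensities of 16.59 and 16.53, and non-member probes at about that brightness had a higher median, 0.86. Cytochrome b, at 17.11, was brighter than the last window of non-member probes, whose median was 0.92. All 3 ratios were below these medians. With the scanner software 0 of the 3 genes passed the mark upward and 1 downward. With median centring 3 passed it upward, as did 209 of 215 probes of other genes at 16 to 17. Assembly factors, which build the complexes without being part of them, had a median of 0.05 over 34 genes, with 0 past the 1.5-fold mark downward, against 5.88% of all genes, and 2 upward, against 2.10%. These were the complex I factor Acad9, at 9.34 and 10.19, a log2 ratio of 0.85 ± 0.27, and the F1 assembly factor Atpaf2, at 11.06 and 11.88, a log2 ratio of 0.81 ± 0.22. The lowest was Cox20, which helps mature the second subunit of complex IV, at −0.44 ± 0.21. Among the name-matched genes that are no subunits, the complex I factor Ndufaf1 had the highest log2 ratio, 0.49 ± 0.21, from 11.74 and 12.24. Other listed complex I factors differed in sign, with Foxred1 at 0.25, Ecsit at 0.04, Nubpl at −0.17 and Tmem126b at −0.195. Timmdc1 had 0.48, from probes at −0.25 and 1.21.

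The 16 listed regulators of mitochondrial biogenesis had a median of 0.01, and 0 passed 1.5-fold in either direction. Of all genes, 5.88% passed it downward and 2.10% upward, so few would be looked for in a list of this size. The coactivator Ppargc1a read 9.41 and 8.99, a log2 ratio of −0.41 ± 0.21, and its relative Pprc1 read 11.28 and 11.70, a log2 ratio of 0.42 ± 0.21. Nrf1, a direct activator of respiratory chain genes, had a log2 ratio of 0.22, and Tfam, which packages and transcribes mitochondrial DNA, −0.0048. The 17 TCA cycle enzymes had a median of −0.08, from Pdhb at −0.22 to Mdh2 at 0.20, and the 14 inner membrane carriers and ATP synthase regulators a median of 0.09, from Slc25a11 at −0.33 to the ADP/ATP carrier Slc25a4 at 0.37. None of these genes passed 1.5-fold under this scaling. With the scanner software 1 regulator passed it upward, as did 2962 of 19216 probes of other genes at a mean log2 intensity of 6 to 10 and 207 of 10041 at 10 to 14. With median centring the list medians were 0.58 for assembly factors, 0.48 for regulators, 0.65 for TCA enzymes and 0.78 for carriers, and 17, 6, 10 and 12 of their genes passed 1.5-fold upward. So did 1684 of 19216 probes of other genes at 6 to 10, 4832 of 10041 at 10 to 14 and 438 of 505 at 15 to 16.

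Some subunits and factors stood on the array under clone names that the naming rule did not catch. They came to 11 symbols, 10 of them not among the members, with 16 probes. The remaining symbol was Sdha, whose probe here was dim, at 7.28 and 7.18. With the probes of a symbol taken at their median, the 11 log2 ratios had a median of −0.10 and ranged from −0.35 to 0.28. None passed 1.5-fold, against 5.88% of all genes downward and 2.10% upward. Among them were Uqcr10 of complex III at 0.09 and Cox7b2, a form of subunit VIIb known from testis, at −0.17.

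The promoters of the subunit genes are shown because nuclear respiratory factors are known to switch many of them on together, whereas muscle isoforms are known to follow muscle regulators. RefSeq promoter sequences of the GRCm38.p6 assembly were found for 65 of the 80 subunit and cytochrome c genes (70 promoters), and the 250 bases upstream of the start were searched on both strands. The NRF1 core (GCGC, A, any base, GCGC) was in 14 of 70 (20%), against 3.74% of 32851 promoters. The ETS core CCGGAAG was in 12 of 70 (17.1%), against 6.91%. The E-box CANNTG was in 61.4% against 66.2%, TATAAA in 8.57% against 12.4%, and the MEF2 motif in 0 against 0.508%. No promoter sequence was found for the muscle isoform Cox6a2, so its upstream bases were not searched for any of these motifs. These member promoters were also richer in G and C, with a median of 56.4% against 52.4%, and its part in the motif shares was not tested. The 13 genes with the NRF1 core had a median log2 ratio of 0.04, and the 52 without it −0.06. The 12 with the ETS core had a median of 0.05, and the 53 without it −0.05. By offset the order was the opposite for the ETS core, at −0.22 with it and −0.06 without, and for the NRF1 core the medians were −0.03 with it and −0.13 without.

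For subunit VIII the upstream windows of both forms can be set side by side, since this pair had a muscle form at −0.98 and a ubiquitous form at 0.38. The Cox8b window is chr7:140900447-140900696 and the Cox8a window chr19:7217617-7217866 of GRCm38.p6, both on the minus strand, with the E-box in capitals.
Cox8b: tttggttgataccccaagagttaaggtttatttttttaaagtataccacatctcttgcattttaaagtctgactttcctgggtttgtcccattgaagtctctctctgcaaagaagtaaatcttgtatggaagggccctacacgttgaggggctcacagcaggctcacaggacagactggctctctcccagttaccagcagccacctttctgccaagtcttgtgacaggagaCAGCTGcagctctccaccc
Cox8a: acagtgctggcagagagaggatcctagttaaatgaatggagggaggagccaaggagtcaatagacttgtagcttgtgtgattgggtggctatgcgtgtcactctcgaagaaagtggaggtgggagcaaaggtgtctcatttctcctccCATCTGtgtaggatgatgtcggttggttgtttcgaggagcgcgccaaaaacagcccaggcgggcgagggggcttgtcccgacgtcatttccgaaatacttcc
Each window held 1 E-box, CAGCTG in Cox8b and CATCTG in Cox8a, and none of the other motifs searched. The E-box pattern was in 66.2% of all promoters, so its presence in both windows cannot tell the pair apart. The G and C content was 47.2% for Cox8b and 52.8% for Cox8a.

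**Figure D5:**
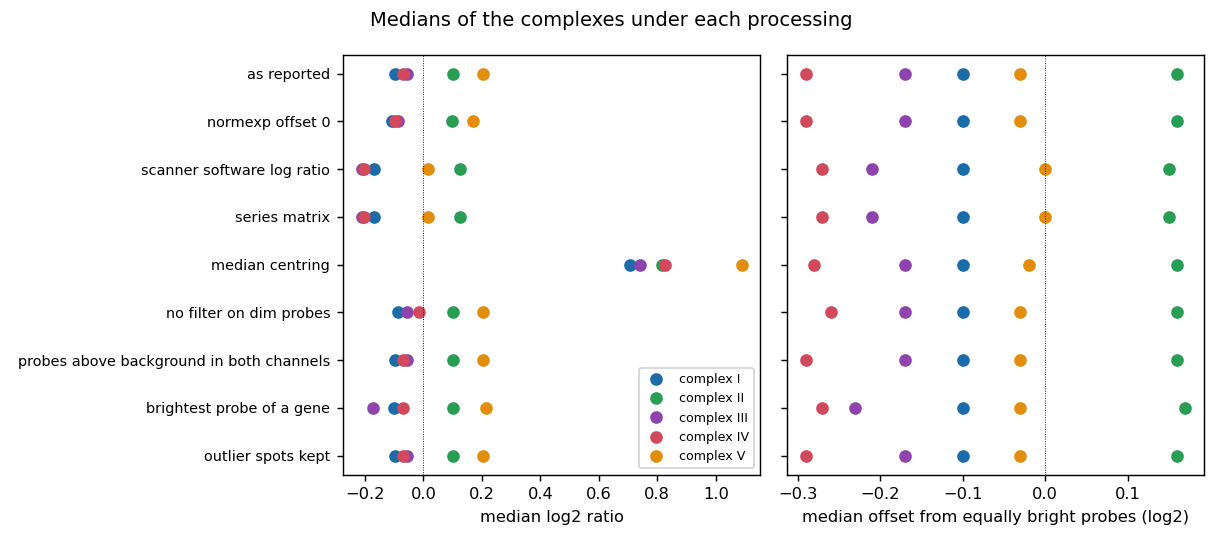
Median log2 ratio (left) and median offset from equally bright probes (right) of each complex under the processing as reported and 8 alternatives. The ratios shift with the scaling, from 0.01 to 1.09 for complex V, while complex IV kept the lowest and complex II the highest median offset in every setting plotted.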

How the data were processed

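Lung RNA (100 ng per embryo, 1 round of amplification, per the labels' protocols) was hybridised to 1 Agilent two-colour array, scanned with Agilent Feature Extraction 9.5.3.1, per the submitters' processing notes. The 2 deposited scanner files were identical and counted as 1 array with 1 sample per group. Mean spot and local background intensity were deposited on a linear scale, per the file headers. The log10 ratio and its error, a score of the software's error model, were also deposited per the file headers. The deposited series matrix held processed intensity times 1.68 with a floor of 15, as found by comparison with the scanner values, at medians of 139.8 and 138.8.

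Intensities were corrected by normexp (offset 50) and loess-normalised in limma 3.58.1 (R 4.3.3), with control spots at weight 0 and 169 outlier spots left out. The offset of 50 pulls ratios of dim probes towards 0. Probes were kept when over a 0.5 share of spots was well above background in 1 channel, and genes, by their name in the file, took the median of kept probes. The step was tested on simulated data, in which probes drawn at random were changed by known folds. That setting does not cover a shift gathered among the brightest probes, as on this array. Motifs, offsets and counts were computed in Python 3.11.15, and 5 member genes have another symbol in RefSeq. The members, their roles and the gene lists were chosen with earlier results of these data known. Every member was eligible to be named, with the extremes of each complex and all isoform pairs described. Alternatives covered background, normalisation, filters, probe choice and the reference probes. With 1 array, precision is limited to that array. Members without a printed value enter the counts and medians, and 1 of them is not reported here by name.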

Additional observations from a re-analysis of the deposited data

How the results depend on the processing

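Of 92 values recomputed under alternatives, 79 moved by less than the SD between repeated spots (for counts, by at most 1.5 times) and 13 moved more. The median offset of complex V, −0.03, ranged over both signs, from −0.04 to 0.02. The median log2 ratio of the members was −0.12 with the scanner software and with the series matrix, and median centring gave 0.79 and moved the median of all genes to 0.22. Members at least 1.5-fold higher numbered 2 with the scanner software or the matrix (Uqcrq and Cox4nb), 63 with median centring and 1 with the brightest probe of each gene (Atp5b). The gap between muscle isoforms and counterparts was −1.58 with a normexp offset of 0, −1.26 with the scanner software or the matrix and −2.31 with median centring. The median offset was −0.23 for complex III with the brightest probe and −0.18 for complex IV without ribosomal protein genes. The sign of the ratio differed for 18 of 84 genes with the scanner software and 44 with median centring. No paired analysis was possible because each group was 1 sample on the same array. No replicate could be left out. The cause of these differences was not tested.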
